A study of Bos taurus with 8 samples.

Results

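Platelets carry a small set of surface receptors and granule proteins that mark them in blood, and 10 of the genes for these proteins were followed here: PPBP, PF4, P2RY12, P2RY1, ITGA2B, ITGB3, GP1BA, GP9, GP6 and SELP. They were matched by gene symbol in the authors' deposited table of group averages, and every probe was kept apart. Of the 10 genes, 8 had a probe under their symbol, 16 probes in all among 43653 gene probes, and GP9 and GP6 were not analysed here. Whole blood was drawn from 5 female Holstein Friesian cows that had all received a probiotic for 60 days. The blood was either treated with a phenolic extract of cowpea leaf at 10 µg/ml (CPE) or left untreated (CONTROL), and both were kept for 30 min at 37 °C under 5% CO2. RNA was pooled per group and read on one-colour bovine oligonucleotide arrays, 4 per group. The comparison asked which transcripts differed in blood after short exposure to the extract.

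Platelets have no nucleus and carry messenger RNA inherited from megakaryocytes. Which blood cells the signal of these transcripts came from was not tested here. Platelets stick to a damaged vessel through the von Willebrand factor receptor, of which GP1BA and GP9 are parts, and through the collagen receptor GP6. ADP released by activated platelets then acts on P2RY1, which starts shape change, and on P2RY12, which sustains aggregation and is the target of clopidogrel. The integrin of ITGA2B and ITGB3 binds fibrinogen and links platelets together. Alpha granules release the chemokines PPBP and PF4 and bring P-selectin, the product of SELP, to the surface, where it captures leukocytes. Some of these genes are also read in other cells: SELP in endothelium, ITGB3 in endothelium and macrophages, and P2RY12 in microglia and some leukocytes.

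The probes whose readings the results turn on are shown first, because 1 probe stands for a gene here and the pair for P2RY12 read different stretches of it. Sequences are those of the deposited table, 5′ to 3′, and the capitals mark stop triplets (TAA, TAG or TGA) in any forward frame. For probes of which only the first 30 of 60 bases are printed, the name says so.
PPBP A_73_117476, first 30: cTAGggtgTAAgacagtctcaaggatgtat
PF4 A_73_P046226: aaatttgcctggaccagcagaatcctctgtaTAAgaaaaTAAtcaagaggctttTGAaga
P2RY12 A_73_P034781, first 30: TAAcTAGcttgTAAaaactgTGAtttgggc
P2RY12 A_73_P267176: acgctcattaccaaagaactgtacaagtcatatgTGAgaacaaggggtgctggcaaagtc
ITGA2B A_73_120486, first 30: gcccacacatctctgtcctgcagcaaggct
SELP A_73_118647, first 30: aaggattcccTAAatgccatgttcTAGtgt
The PPBP probe and the P2RY12 probe A_73_P034781 had 0 forward frames open over their 60 bases. The P2RY12 probe A_73_P267176 had 2 open frames, and the PF4 probe had 1. No member probe shared a run of 20 bases with any other of the 43653 probes, on either strand.

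Large areas of these arrays were dim, so each spot was judged against its surroundings. A spot was called lit where the local intensity, the 90th percentile of the median signal of the 61 nearest gene spots, lay within 1.5 log2 units of the array's own upper level. Lit spots made up 43.2% to 50.2% of the gene spots on CPE arrays and 31.9% to 40.8% on CONTROL arrays, and 29.7% of spots were lit on all 8. The share of spots that the scanner software called well above background was 37.8% to 49.9% on CPE and 26.4% to 37.1% on CONTROL arrays, and no spot was saturated. Some markers of the labelled tissue were read: the haemoglobin gene HBB, the T cell gene CD3E, the B cell gene CD79A and the neutrophil gene CSF3R were lit and well above background on all 8 arrays. Many others were not: in the lit area 1 of 15 red cell, 10 of 13 T cell, 4 of 7 B cell and 5 of 12 neutrophil genes listed could be tested. Each group lay on a slide of its own, so slide and treatment cannot be told apart in any value below. With pooled RNA the arrays may be technical replicates, and p-values measure the spread between arrays, not between cows.

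Of the 16 probes, 4 were lit on all 8 arrays: the PPBP probe, a pair of P2RY12 probes and 1 GP1BA probe. The first 3 of these were also well above background on all 8 arrays, and they are the only members with a full comparison. Another 5 were lit on some arrays and 7 on none. A further 8 probes were well above background on some arrays but not all, and 5 were never well above background, so for most platelet receptors these arrays give a bound or no level.

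**Figure D1:**
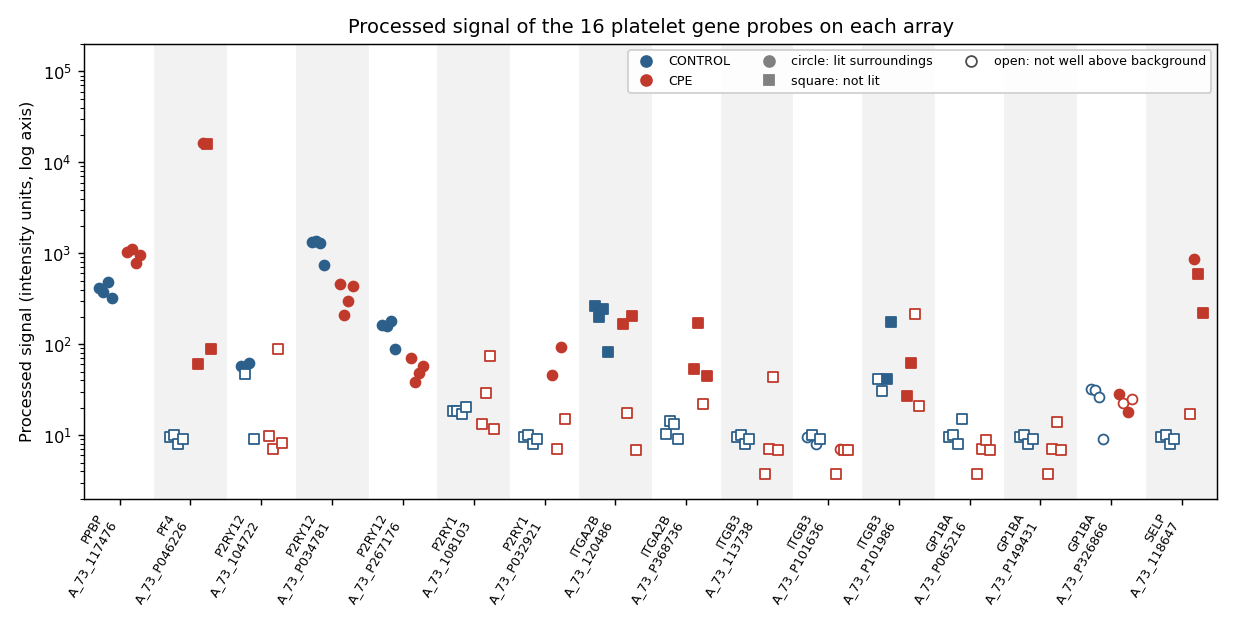
Processed signal (intensity units, log axis) of each of the 16 probes on the 4 CONTROL and 4 CPE arrays, 1 point per array. Circles are spots in lit surroundings, squares are not, and open symbols were not well above background. PPBP and the P2RY12 probes A_73_P034781 and A_73_P267176 have 8 filled circles each, and PF4 spans 60.0 to 16374 within CPE.

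Among granule chemokines, PPBP, the platelet basic protein whose cleaved forms attract neutrophils, was higher after the extract relative to the other lit probes. Its processed intensity was 1035, 1117, 777 and 963 on the CPE arrays and 411, 377, 480 and 324 on the CONTROL arrays. All 4 CPE arrays lay above all 4 CONTROL arrays, and so did the local intensity around the spot, at 1831 to 2297.5 in CPE and 1040 to 1546.5 in CONTROL. On the lit-area scale, log2 intensity relative to the 75th percentile of lit probes on the same array, PPBP stood at 0.66 ± 0.23 (SD, n = 4) in CPE and at -0.81 ± 0.16 in CONTROL. The difference was 1.46 log2 units (SE 0.14), 2.76-fold higher in CPE, with a limma adjusted p of 7.24e-05. It ranked 164th among the rises of 8033 probes tested. With local centring, which subtracts the median deviation of the nearest lit spots, the difference was 0.86 (limma adjusted p = 1.62e-05). With that centring 3536 of all 8033 probes were called higher and 2133 lower, with a median change of 0.13. The remaining part of the surroundings was not tested. In the lit-area fit without centring, 48.2% of all probes passed the threshold of 0.05, 23.8% as higher and 24.4% as lower. There 50.6% had groups that did not overlap, so that a call by itself sets no probe apart. The calls split into 1913 higher and 1959 lower, with no scaling into 422 and 1042, and with spike-in scaling into 0 and 7909.

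The scale mattered for PPBP. Relative to the 75th percentile of the whole array, where dim areas count too and the median probe fell by 0.82, PPBP was at 2.29 ± 0.58 (SD, n = 4) in CPE and 1.95 ± 0.49 in CONTROL. That difference, 0.34 log2 units (SE 0.46), did not pass (limma adjusted p = 0.529), and the groups overlapped. With no scaling it was 1.29 log2 units and with scaling on probes well above background on all 8 arrays 1.24, both past the threshold (limma adjusted p = 0.0025 and 0.000488). Scaling on the spike-in probes turned its sign, to -1.41, in the whole-array and the lit-area fit, where the median of all probes then stood at -2.57 and -2.85. The rise of PPBP thus depended on the scale. It passed relative to lit or bright probes and with no scaling, but not relative to the whole array. Against the spike-in probes the change was a fall.

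PF4, platelet factor 4, which binds heparin, was read on CPE arrays and at the lowest processed value on CONTROL arrays. Its processed intensity was 60.0, 16374, 15853 and 88.6 on CPE arrays 1 to 4, all well above background. On the CONTROL arrays it was 9.48, 10.15, 8.03 and 9.15, each the floor to which the scanner software set many dim spots. CPE arrays 2 and 3 lay far above CPE arrays 1 and 4, and all 4 lay above every CONTROL array. On the whole-array scale, 46.1% of the probes tested had groups that did not overlap, counting both directions. The local intensity around the spot was 1641 and 692 on CPE arrays 2 and 3, and 98 and 115 on CPE arrays 1 and 4. It was 115 to 199 on CONTROL arrays, where 46.7% to 70% of the 60 nearest spots were also at the floor. At the floor were 31.7% and 51.7% of them on CPE arrays 1 and 4, 20% on CPE array 2 and 0% on CPE array 3. Only on CPE array 2 was the spot lit.

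On the whole-array scale PF4 was at 2.46 ± 4.16 (SD, n = 4) in CPE against -3.48 ± 0.66 in CONTROL, with a limma adjusted p of 0.0119. It entered the fit through CPE alone, the group where it is high, so a difference came with the filter and the p lends no support of its own. Because no CONTROL array measured it, the fold is a bound on the array signal, at least 12.3-fold higher in CPE. For each CONTROL array it took the lowest signal that was well above background there, with a mean of -1.16. The bound rests on CPE arrays 2 and 3, at 6.25 and 5.83. CPE array 4 was at -0.59, and CPE array 1, at -1.66, lay below that mean. As the spot was lit on no CONTROL array, the bound does not extend to the transcript. The bound was at least 5.13-fold without CPE array 2, 5.65-fold without CPE array 3, 31.8-fold without CPE array 1 and 24.9-fold without CPE array 4. Of all 14906 probes tested on this scale 39% passed, 17.3% as higher and 21.6% as lower. That split, 2585 against 3222, became 3239 against 1146 with no scaling and 1490 against 10962 with spike-in scaling. The PF4 call was lost with normexp background correction (adjusted p = 0.0802) and with a trended and robust variance (adjusted p = 0.0560). How far the dim surroundings account for the PF4 difference was not tested. PF4 and PPBP are next to each other in the bovine RefSeq annotation, to which the PPBP probe is tied by gene symbol alone. The PPBP spot was lit on all 8 arrays and the PF4 spot on 1.

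P2RY12, the ADP receptor that sustains aggregation, was lower after the extract with both lit probes. The probe A_73_P034781 gave processed intensities of 464, 212, 296 and 432 on CPE arrays and of 1341, 1359, 1289 and 744 on CONTROL arrays. All CPE values lay below all CONTROL values, with CPE array 2 lowest and CONTROL array 4 the lowest of its group. On the lit-area scale it was at -0.87 ± 0.57 (SD, n = 4) in CPE and 0.73 ± 0.25 in CONTROL. It fell by 1.61 log2 units (SE 0.27), 3.04-fold lower, with a limma adjusted p of 0.00154, and ranked 174th among the falls.

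The second lit probe, A_73_P267176, was also lowest on CPE array 2 and, within CONTROL, on array 4. Those were also the arrays of each group with the lowest local intensity, 1698.5 and 1723.5 around this spot and 1380.5 and 1641 around that of A_73_P034781. The part of this in the spread was not tested. It gave 70.6, 38.8, 48.0 and 57.9 on CPE arrays and 163, 159, 180 and 88.0 on CONTROL arrays, again without overlap. Its lit-area level was -3.54 ± 0.46 (SD, n = 4) in CPE and -2.28 ± 0.31 in CONTROL. It fell by 1.26 log2 units (SE 0.24), 2.40-fold lower, with a limma adjusted p of 0.0030, and ranked 290th among the falls. This call was lost under normexp background correction (-0.34, adjusted p = 0.532). On the whole-array scale the P2RY12 probes fell by 2.73 (SE 0.49, adjusted p = 0.00128) and by 2.38 log2 units (SE 0.46, adjusted p = 0.00194) in limma, where the median probe fell by 0.82.

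Both probes read transcripts of 1 gene from the same RNA, so they are not independent observations of the treatment. Their lit-area levels correlated across the 8 arrays with a Pearson r of 0.99, a description that includes the difference between groups. PPBP correlated with them at -0.87 and -0.82. The third P2RY12 probe, A_73_104722, was well above background only on CONTROL arrays 1 and 3, at 57.2 and 61.8, which were also the only arrays where its spot was lit. On CPE arrays it gave 9.70, 7.10, 88.7 and 8.18 and was on none well above background. Its bound on the array signal was at least 1.80-fold higher in CONTROL, measured on 2 of 4 CONTROL arrays and not tested. The CONTROL mean behind it includes array 4, which was at the floor. In processed intensity, CPE array 3 exceeded every CONTROL array. As the spot was lit on no CPE array, the bound does not extend to the transcript.

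In the bovine RefSeq annotation P2RY12 overlaps MED12L, whose probe was not lit on all 8 arrays, and lies next to P2RY13, a related ADP receptor of leukocytes. The lit P2RY13 probe differed by 0.03 log2 units (SE 0.24) and did not pass (limma adjusted p = 0.924).

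**Figure D2:**
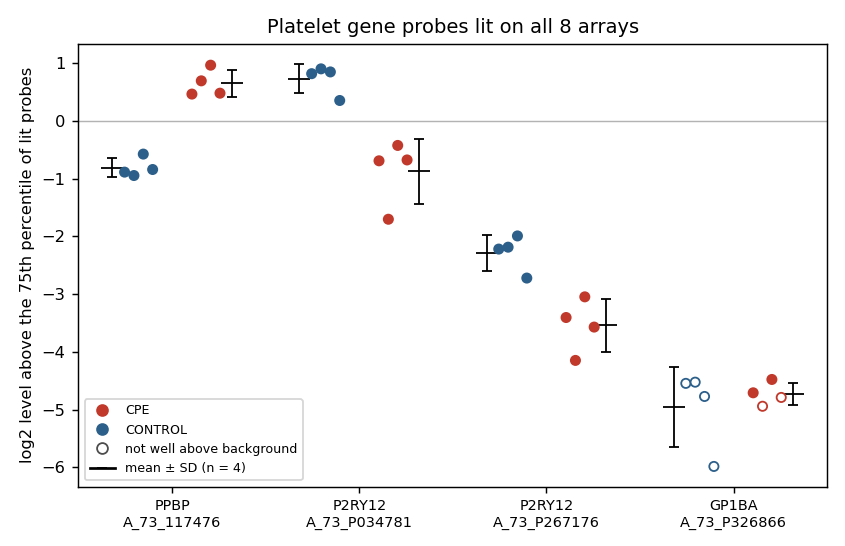
Lit-area log2 level (relative to the 75th percentile of lit probes on each array) of the 4 platelet gene probes lit on all 8 arrays. Points are arrays, bars the mean ± SD of 4 arrays, and open points were not well above background. PPBP lies higher in CPE (0.66 against -0.81), the P2RY12 probes lie lower (-0.87 against 0.73, and -3.54 against -2.28), and the GP1BA groups overlap.

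P2RY1, the other ADP receptor of platelets, could not be compared. The probe A_73_108103 gave 11.8 to 75.1 on CPE arrays and 17.2 to 20.4 on CONTROL arrays, was never well above background and was lit on none. The probe A_73_P032921 was well above background on CPE arrays 1 and 3, at 46.5 and 93.2, the arrays on which its spot was lit, and at the floor on all CONTROL arrays. No fold is given, since the bound came to less than 1.

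No integrin probe was lit on all 8 arrays, and the 3 that were well above background on any array were lit on none. The ITGA2B probe A_73_120486 gave 168, 17.6, 206 and 6.95 on CPE arrays and 266, 201, 246 and 83.0 on CONTROL arrays. All 4 CONTROL spots and those of CPE arrays 1 and 3 were well above background. The local intensity was 660 and 288 on CPE arrays 1 and 3, 109 and 96 on CPE arrays 2 and 4, and 231 to 600 on CONTROL arrays, so the low readings fell on the arrays with the dimmest surroundings. On the whole-array scale it was at -2.12 ± 2.12 (SD, n = 4) in CPE and 0.83 ± 0.16 in CONTROL, and fell by 2.95 log2 units (SE 0.84, limma adjusted p = 0.0186). It entered the fit through CONTROL alone, where it is high, and CPE array 4 was at the floor, so the size is no exact one and the p lends no support of its own. The call was lost without CPE array 2 (-2.45, adjusted p = 0.0592), without CONTROL array 4 (-3.01, adjusted p = 0.0617), with no scaling (adjusted p = 0.216) and with scaling on bright probes (-2.06, adjusted p = 0.186).

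The other ITGA2B probe, A_73_P368736, went the other way. It gave 53.9, 172, 21.9 and 44.3 on CPE arrays and 10.4, 14.2, 13.4 and 9.15 on CONTROL arrays, none of the latter well above background. Its local intensity was 533, 697, 106 and 540 on the CPE arrays and 122 to 135 on the CONTROL arrays. Its 3 highest readings came on the 3 arrays with the brightest surroundings. The ITGA2B probes thus disagreed in direction, and the part of the surroundings in either difference was not tested.

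ITGB3, the beta chain of the same integrin, had 3 probes, of which 2 were never well above background. One of these, A_73_P101636, was lit on CPE array 2 and CONTROL arrays 1 and 3 and stood at the floor there. The probe A_73_P101986 gave 27.0, 62.3, 215 and 21.0 on CPE arrays and 41.6, 30.8, 41.7 and 176 on CONTROL arrays, and was well above background on 2 arrays of each group. The groups overlapped, and it did not enter the fit.

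Among the adhesion receptors, GP1BA had 1 lit probe. A_73_P326866 gave 28.6, 22.4, 17.8 and 24.9 on CPE arrays and 32.5, 31.5, 26.1 and 9.15 on CONTROL arrays. It was well above background on CPE arrays 1 and 3 alone, so it was not tested, and the lit-area levels overlapped, from -4.94 to -4.48 in CPE and from -5.99 to -4.53 in CONTROL. Its low signal came with lit surroundings on all 8 arrays. The 2 other GP1BA probes never rose above 15.3 on any array and were not lit.

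SELP was read on CPE arrays 2, 3 and 4, at 876, 598 and 220, and at 17.0 on CPE array 1, where it was not well above background. All 4 CONTROL arrays were at the floor. The local intensity was 1221, 460 and 518 on CPE arrays 2 to 4, 96 on CPE array 1 and 97 to 105 on CONTROL arrays. The part of the surroundings in this difference was not tested. The bound on the array signal was at least 2.39-fold higher in CPE, with 3 of 4 CPE arrays measuring it, and was not tested. It was at least 5.45-fold without CPE array 1 and at least 1.53-fold without CPE array 2. As the spot was lit on no CONTROL array, the bound does not extend to the transcript.

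Each member spot was also set against its own neighbourhood, as the percent of the 60 nearest spots that were dimmer on the same array, a measure that no scaling between arrays changes. P2RY12 A_73_P034781 was brighter than 83.3% of its neighbours on each of the 4 CONTROL arrays and than 68.3% to 71.7% on CPE arrays. P2RY12 A_73_P267176 stood at 68.3% to 70% in CONTROL and 60% to 63.3% in CPE. PPBP moved the opposite way, from 65% to 68.3% in CONTROL and 73.3% to 75% in CPE.

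These shifts were -12.9, -7.08 and 7.92 percentage points, and for each the groups did not overlap. The share of all lit spots with groups apart on this measure was not computed. On the lit-area level scale it was 50.6% of the probes tested, so non-overlap by itself sets no probe apart. The exact two-sided permutation test gave p = 0.0286 for each of the 3, the smallest p that 4 against 4 arrays allow, or 0.0381 adjusted over the 4 lit probes. Groups that do not overlap always give this p. The measure was added after the levels of these probes on the same arrays were seen, so the p lends no support of its own. For GP1BA the percent was 33.8% ± 0.83 (SD, n = 4) in CPE and 22.5% ± 15.4 in CONTROL, and the same exact test gave p = 0.114. PF4 was brighter than 95% to 98.3% of its neighbours on all 4 CPE arrays, and SELP than 76.7% to 88.3%.

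**Figure D3:**
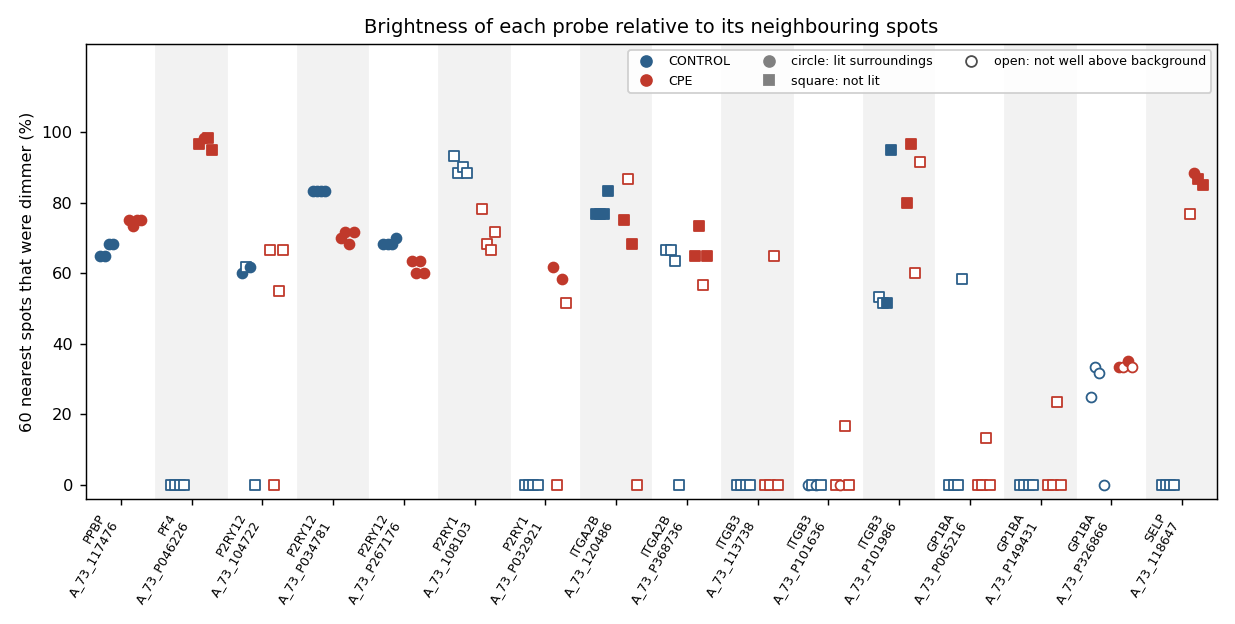
Percent of the 60 nearest spots that were dimmer than each member spot on the same array, 1 point per array, with symbols for group, lit surroundings and background call. The P2RY12 probe A_73_P034781 sits at 83.3% on all 4 CONTROL arrays and at 68.3% to 71.7% on CPE arrays, and PPBP lies higher in CPE.

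Over the alternative settings run for the lit area, PPBP was higher in 19 of 20, by 0.86 to 1.54 log2 units, and lower with spike-in scaling (-1.41). P2RY12 A_73_P034781 ranged from -4.48 to -1.33 and passed in 20 of 20. P2RY12 A_73_P267176 ranged from -4.14 to -0.34 and passed in 20 of 21, the exception being normexp. The values of -4.48 and -4.14 are those with spike-in scaling, under which the median lit probe fell by 2.85.

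**Figure D4:**
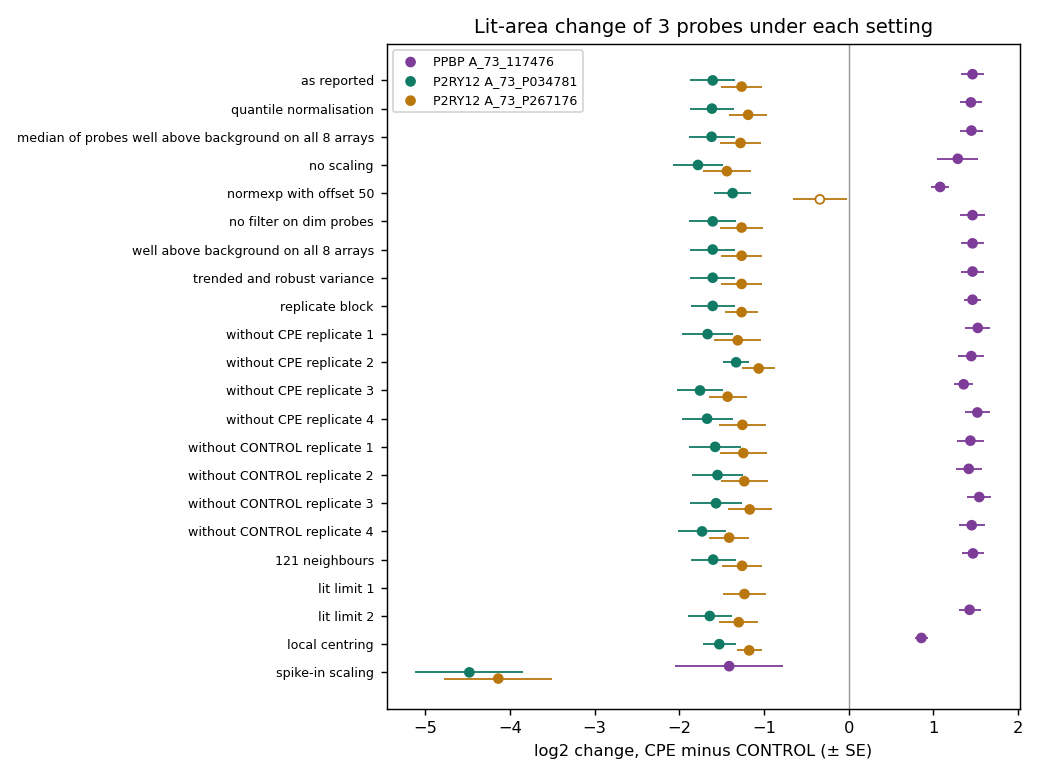
Lit-area log2 change (CPE minus CONTROL, ± SE) of the PPBP probe and the P2RY12 probes under the settings run for the lit area, with filled points for a limma adjusted p below 0.05. PPBP lies between 0.86 and 1.54 except with spike-in scaling (-1.41), both P2RY12 probes lie below 0 throughout, and only A_73_P267176 with normexp (-0.34) is open.

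The probes whose lit-area level followed the members most closely over the 8 arrays were sought among 5917 named probes that were lit and well above background on all 8. For PPBP these were MND1, GLRX and PHLDB1, with Pearson r of 0.999, 0.997 and 0.994. For P2RY12 A_73_P034781 they included TMEM86B (r = 0.999) and B3GNT5 (r = 0.992). For P2RY12 A_73_P267176 they included TMEM86B (r = 0.987) and C1S (r = 0.985). These arrays share a slide within each group, and 275 probes exceeded an r of 0.95 with PPBP, 47 with P2RY12 A_73_P034781 and 37 with P2RY12 A_73_P267176.

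Other genes of platelet biology were taken from lists of 100 genes, of which 97 were on the array and 45 could be tested in the lit area with 1 probe each. Of these 45, 7 were higher and 12 lower, or 42.2% past the threshold, below the 48.2% of all probes. Their median change was -0.11 against 0.02 for all probes. The platelet lists as a group thus gave no larger share of calls than the array at large, and their calls went in both directions. With spike-in scaling all 45 were lower, as were 7909 of all 8033 probes, so each rise below is relative to the other lit probes.

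Of 5 other adhesion receptors tested, 1 was higher and none lower. CD226, an adhesion molecule of platelets that T and NK cells also carry, was higher by 1.17 log2 units (SE 0.17, limma adjusted p = 0.000818), a call lost with normexp (0.55, adjusted p = 0.19). CD9 (0.46), JAM3 (0.15), ITGB1 (-0.11) and F11R (-0.18) did not pass in log2 units.

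Of 4 agonist receptors and channels, 1 was higher and 2 lower. F2R, a thrombin receptor, was higher by 0.68 log2 units (SE 0.10, limma adjusted p = 0.000974). STIM1, the calcium sensor of the endoplasmic reticulum, fell by 0.42 (SE 0.07, adjusted p = 0.00188). With no scaling both calls were lost (0.50, adjusted p = 0.175, and -0.60, adjusted p = 0.112). PTAFR, the receptor of platelet-activating factor, fell by 0.46 (adjusted p = 0.0447), with CPE and CONTROL levels that overlapped.

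Of 9 granule cargo genes, 2 were higher and 3 lower. VWF, the adhesive protein that endothelium also makes, was higher by 1.13 log2 units (SE 0.22, limma adjusted p = 0.00322), and clusterin, CLU, by 0.44 (SE 0.07, adjusted p = 0.00135). The VWF call was lost with normexp (0.76, adjusted p = 0.0699) and the CLU call with no scaling (0.27, adjusted p = 0.501). VEGFA fell by 1.13 (SE 0.10, adjusted p = 7.16e-05) but was well above background on only 2 of 4 CPE arrays, and with normexp it was at -0.05 (adjusted p = 0.945). The transglutaminase F13A1 (-0.01) and thrombospondin THBS1 (-0.09), abundant cargo of platelets, did not pass.

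Signalling and secretion genes gave 3 higher and 4 lower of 18. TLN1, talin, which activates the integrin, was higher by 1.22 log2 units with 1 probe (SE 0.09, limma adjusted p = 2.22e-05), while its other lit probes gave 0.62, -0.64 and -0.94, all past the threshold, so its probes disagreed. The kinase FYN was higher by 0.65 (SE 0.13, adjusted p = 0.00435), a call lost with no scaling (0.48, adjusted p = 0.19). PLA2G4A, which releases arachidonic acid, fell by 0.66 (SE 0.15, adjusted p = 0.0062), and UNC13D, a factor of granule priming, by 0.40 (SE 0.11, adjusted p = 0.0191). With no scaling and with normexp both were lost, PLA2G4A at -0.84 (adjusted p = 0.068) and -0.17 (adjusted p = 0.625), UNC13D at -0.58 (adjusted p = 0.175) and -0.20 (adjusted p = 0.325), and UNC13D also with local centring (-0.06, adjusted p = 0.226). Of the enzymes of thromboxane synthesis, TBXAS1 fell by 0.40 (SE 0.09, adjusted p = 0.00746) and PTGS1 (-0.10) did not pass.

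Megakaryocyte factors and cytoskeletal genes gave none higher and 3 lower of 7. FLNA, filamin A, fell by 0.45 log2 units (SE 0.08, limma adjusted p = 0.00265), while its second lit probe (-0.12) did not pass, and with no scaling the call was lost (-0.62, adjusted p = 0.129). TPM4, a tropomyosin, fell by 0.28 (adjusted p = 0.0373), a call that was lost in 14 of 21 settings, and its second lit probe fell by 0.45 (adjusted p = 0.00299). MYH9, non-muscle myosin, did not pass with the probe used (-0.24), while its other lit probes gave -0.86 (adjusted p = 0.000658) and 0.23 (adjusted p = 0.163). ZFPM1, a partner of GATA factors, fell by 0.51 (adjusted p = 0.025), with groups that overlapped. The nucleotide enzymes ENTPD1 (0.04), which removes ADP, and ADCY7 (-0.14) did not pass. On the whole-array scale 64 of the listed genes were tested, with 7 higher and 13 lower, or 31.3% past the threshold against 39% of all probes, and a median of -1.06 against -0.82. With spike-in scaling 5 were higher and 52 lower.

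Markers of other blood cells were also called in the lit area, where 48.2% of all probes passed and 50.6% had groups that did not overlap. Of 10 T cell genes tested, 6 were higher and none lower, and their mean level was 1.18 to 1.26 log2 units on CPE arrays and 0.64 to 0.72 on CONTROL arrays. On the whole-array scale none of 11 T cell genes passed, with a median of -0.57 against -0.82 for all probes. With spike-in scaling no lit probe was called higher. Of 5 neutrophil genes, 2 were higher and 3 lower, with a mean level of 1.06 to 1.26 in CPE and 1.83 to 2.40 in CONTROL. Of 3 monocyte genes 1 was lower, and of 4 B cell genes none passed, though a second lit probe of CD79A fell by 0.38 (adjusted p = 0.00683). The 1 red cell gene tested, HBB (0.28), and the 1 endothelial gene tested, ROBO4 (0.42), did not pass. The part of these cell types in the PPBP and P2RY12 differences was not tested. The lit members went in both directions, PPBP higher and P2RY12 lower. In pooled whole blood, a change in platelet number, a change in RNA per platelet and a change in the RNA of other cells cannot be told apart.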

How the data were processed

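RNA of CPE and CONTROL blood was read on 8 one-colour Agilent arrays, 4 per group. Per the file headers, the deposited array files hold each spot's processed intensity from Agilent Feature Extraction (version 10.10.1.1, per the submitters' processing notes) and the flags for well above background and saturation. The deposited table of group averages holds log2 values: the authors' averages were recovered, to within 0.1 log2 units for 99.98% (CPE) and 99.97% (CONTROL) of 43653 probes, from log2 processed intensity minus each array's 75th percentile, centred per probe on its median. Their column medians are -0.596 and 0.458; 11 of the 16 member probes are lower and 5 higher in CPE there.

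Values were log2 processed intensity minus each array's 75th percentile, with spots of one probe averaged and flagged outliers left out. Limma 3.58.1 (R 4.3.3) compared the groups, without covariates, on all probes well above background on every array of at least 1 group, with Benjamini-Hochberg adjustment over all of them and a threshold of 0.05. The lit-area fit used the probes lit on all 8 arrays and took the percentile over them. Each list gene was represented by its tested probe of highest mean. Both fits were also tried on simulated data, of which no outcome is given here, so this lends the results no support. Fold bounds used, per array, the lowest signal well above background or the dim probe's own where higher. The normexp alternative used the median signal, with an offset of 50, and other alternatives changed the scaling, filter, variance, lit limit, neighbourhood and arrays.

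Genes named were all members, and of each other list the 2 largest rises and 2 largest falls that passed with groups that did not overlap. Some genes that this rule named are not reported here. Named beside them after their values were seen were MYH9, CD9, JAM3, ITGB1, F11R, PTAFR, F13A1, THBS1, TBXAS1, PTGS1, ZFPM1, ENTPD1, ADCY7, HBB, ROBO4 and P2RY13. Members and lists were chosen with earlier results of these data known, and the percent of dimmer neighbours and spike-in scaling in the lit area were added after the data were seen. Gene neighbours come from RefSeq (ARS-UCD2.0), where the transcript identifiers of 11 member probes matched. Those of the PPBP probe and of all 3 GP1BA probes did not, and for P2RY12 2 of 3 matched. Probes without a match rest on the deposited gene symbol. The number of arrays limits the precision.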

Additional observations from a re-analysis of the deposited data

Results flagged for a closer look

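Of 23 member probe groups of 4 arrays checked for a lone array, 2 stood out by the gap of 1 array to the nearest other as a share of the group's range; chance alone does this in about 1 in 20 groups. For ITGB3 A_73_P101986 on the whole-array scale, CONTROL array 4 was high at 1.73 log2 units against -1.91 to -1.53 on the other CONTROL arrays (gap share 0.894). For P2RY12 A_73_P034781 in the lit area, CONTROL array 4 was low at 0.36 against 0.82 to 0.91 (gap share 0.848), and without that array the fall was still past the threshold.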

How the results depend on the processing

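In the lit area, the PPBP probe and both P2RY12 probes passed in every setting except normexp (2 passed) and the stricter lit limit of 1 log2 unit, which left 1 probe, and it passed. On the whole array, where 39% of all probes passed, 4 of 5 member probes passed, PF4 and ITGA2B having entered only through the group where they are high; it was 2 of 3 when only probes well above background on all 8 arrays or only lit spots entered. With spike-in scaling, added for the lit area after seeing the data, PPBP reversed to -1.41 in both areas, all 45 other platelet genes of the lit area were lower, and rises reversed for F2R (-2.20), CD226 (-1.70), VWF (-1.75), FYN (-2.22), TLN1 (-1.66) and CLU (-2.43). Of the other platelet genes, 19 passed in the lit area, against 5 with no scaling and 9 with normexp. With local centring, which subtracts the median deviation of the nearest lit spots, 29 of 45 passed (18 higher, 11 lower). Over all 8033 probes that setting gave 3536 higher and 2133 lower. On the whole array 20 passed, against 12 with no scaling, 13 each with normexp, no filter and lit spots only, and 57 with spike-in scaling. Leaving out 1 array at a time gave 8 (without CONTROL array 4) to 28 (without CPE array 4), with 10, 12 and 11 without CONTROL arrays 2 and 3 and CPE array 2. With the replicate number as a block, 4 member probes passed on the whole array and 3 in the lit area. Same-numbered arrays correlated at -0.156 to 0.276 on the whole array and at -0.122 to 0.374 in the lit area. CPE array 4 matched CONTROL array 4 best in both areas, and no other CPE array matched its own number best. These values do not settle whether the numbers pair arrays. Over all probes, normexp gave 842 higher and 853 lower in the lit area and 1461 and 1669 on the whole array. The causes were not tested. With 4 arrays per group, dim areas set the limit: spots outside lit areas were well above background in 11.7% to 35.6%.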
